A study of Mus musculus with 13 samples.

Results

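The enzymes that write and erase cytosine methylation in DNA were examined in CGR8 mouse embryonic stem cells treated with PhenDC3, a bisquinolinium ligand that binds and stabilises G-quadruplexes (G4s), the 4-stranded structures that guanine-rich DNA can form. The genes were chosen by symbol from the RNA-seq count table, but with earlier results of these data known. All 9 were found among the 24079 genes of that table: Dnmt1, Dnmt3a, Dnmt3b, Dnmt3l, Uhrf1, Tet1, Tet2, Tet3 and Tdg. Both groups were asynchronous CGR8 cells grown without feeders on gelatin in serum with LIF. Control cells (Ctrl) received 0.5% DMSO for 48 h, and PhenDC3 cells received 10 μM PhenDC3 in the same share of DMSO for 48 h. RNA-seq was available for 3 libraries of each group, and sequencing of short nascent strands (SNS-seq), which maps replication origins, gave peak lists for 3 Ctrl and 2 PhenDC3 replicates. CGR8 is a single established line, and while the study's methods call the SNS-seq control replicates biological, nothing says so of the RNA-seq replicates, so the RNA-seq p-values measure the spread between these samples, which may be technical.

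Methylation of cytosine in CpG dinucleotides is laid down by Dnmt3a and Dnmt3b, which Dnmt3l, a relative without catalytic activity, assists. It is copied to the new strand after replication by Dnmt1, which Uhrf1 brings to hemimethylated sites. The Tet enzymes oxidise 5-methylcytosine, and Tdg excises the oxidised bases formyl- and carboxylcytosine so that base excision repair can restore cytosine. Embryonic stem cells grown in serum are known for high de novo methylation, and Dnmt3b and Dnmt3l are abundant in them.

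In PhenDC3 cells the mRNA of the de novo genes Dnmt3a, Dnmt3b and Dnmt3l was at 0.336, 0.287 and 0.342 times its Ctrl level, and that of Uhrf1 at 0.577 times. Tet2 and Tet3 were higher, at 1.58 and 1.85 times, while Dnmt1 and Tet1 did not pass the test. Of the 8 genes with enough counts to be tested, 6 were called (edgeR quasi-likelihood test, Benjamini-Hochberg adjusted p of at most 0.05 over all genes), 4 lower and 2 higher. Over all 13972 genes tested, 36.8% were called, 18.7% lower and 18.0% higher, so the response to PhenDC3 reached far beyond these genes. The same 6 genes had Ctrl and PhenDC3 values that did not overlap, as had 50.6% of all genes tested. The median log2 fold change was −0.40 over the 8 genes and 0.01 over all genes tested. It was −0.21 over the 8 genes without Ctrl replicate 3, −0.25 without PhenDC3 replicate 2 and −0.24 with scaling by library totals. In bulk RNA, fewer cells expressing a gene and less RNA per cell cannot be told apart.

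**Figure D1:**
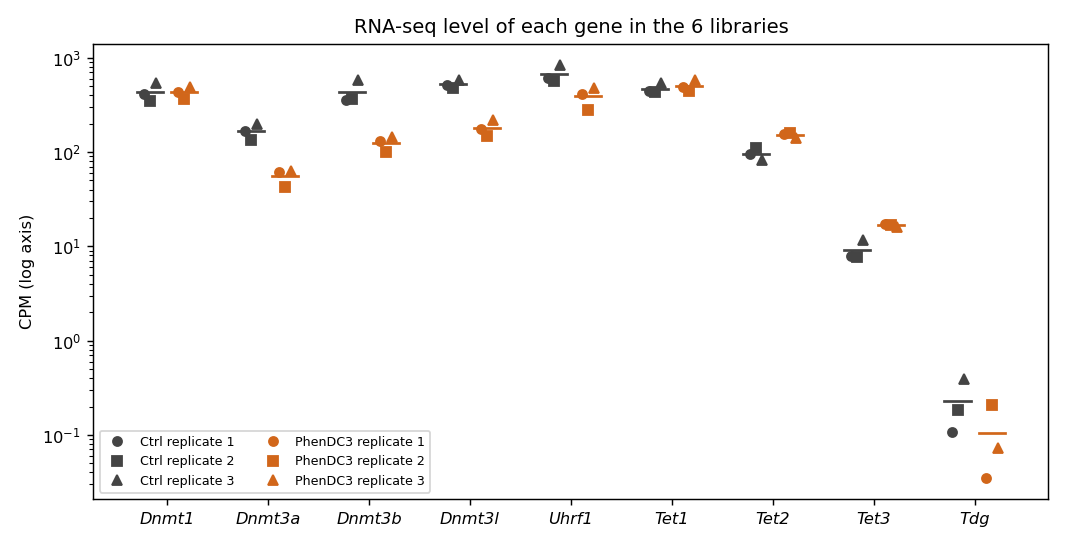
CPM (counts per 1000000 counts of the scaled library total, log axis) of the 9 genes in the 3 Ctrl (grey) and 3 PhenDC3 (orange) RNA-seq libraries, with a symbol for each replicate and a bar at each group's mean. Ctrl and PhenDC3 points are separate for Dnmt3a, Dnmt3b, Dnmt3l, Uhrf1, Tet2 and Tet3 and overlap for Dnmt1, Tet1 and Tdg.

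The libraries held 22232014 to 29486502 counts, and 10 ES cell marker genes summed to 7440 to 8405 CPM (counts per 1000000 after scaling) in Ctrl and 8630 to 10070 CPM in PhenDC3. Of these 10 markers, 4 were higher, Nanog among them at a log2 fold change of 1.22, and 2 were lower, Pou5f1 at −0.45 among them. Fibroblast or feeder markers summed to 12.6 to 22.0 CPM in Ctrl and 23.0 to 25.6 CPM in PhenDC3, with 1 of 6 called higher and 1 lower, and Postn was at 0 in every Ctrl library. Primitive endoderm markers rose from a sum of 16.3 to 27.7 CPM to one of 40.6 to 52.5 CPM, with 4 of 5 called higher and Afp at or below 0.21 CPM throughout. Neural markers went from 22.2 to 25.03 CPM to 37.9 to 40.3 CPM, with Nes higher and Pax6 lower among 3, while the 3 mesoderm and 3 trophoblast markers, none called, stayed at or below 6.66 CPM in sum. The ribosomal RNA precursor Rn45s was the top gene of every Ctrl library, at 2.55% to 5.70% of counts, but of only 1 PhenDC3 library, at 1.43%. The part of these differences in the results was not tested, but leaving out Rn45s before scaling left the same 6 genes called. Scaling by library totals alone moved the median log2 fold change of all genes to 0.16 and the calls from 2518 higher and 2617 lower to 3583 higher and 1688 lower, with the same 6 genes called.

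Because PhenDC3 binds G4s, and because SNS-seq peaks lay near several of these genes, the sequence before their transcription starts was searched. The RefSeq entries used here (GRCm38.p6, the build mm10 that the peak lists use) give 16 starts for the 9 genes. The annotated spans of Dnmt3a, Tet2 and Tet3 reach farther upstream than these starts. For Dnmt3a the span begins at 3801559 and the first listed start is at 3806980. For Tet3 it ends at 83457208 and the start is at 83441678. The sequence before those outer ends was not searched. The motif was 4 runs of at least GGG separated by loops of 1 to 7 bases of any kind, on either strand, in the 250 bases before the start. It was found before 6 of the 16 starts (37.5%), belonging to 5 of the 9 genes: Dnmt1, Dnmt3a, Dnmt3b, Dnmt3l and Tet3. The same windows held it before 25% of the 14066 starts of tested genes, before 16.7% of all 32851 RefSeq starts, and in 28.7% of the 11044 tested genes that have such an entry. The motif thus occurred both in genes called lower and in one called higher, and also before a start of Dnmt1, which was not called, whereas Uhrf1, Tet1, Tet2 and Tdg had none in this window. The Dnmt1 match lay before its start at 20952623, downstream of its starts at 20959888 and 20952979, which had none. With loops of up to 12 bases it was found in 6 of the genes, against 43.1% of tested genes. A G4Hunter score of at least 1.5 over 25 bases was reached in 7 genes, against 57.5% of tested genes. Uhrf1 and Tet1 were among these 7, at 1.84 before the upstream Uhrf1 start and 1.8 before the Tet1 start. The Tet3 window also scored 1.84. A match is a description of these letters, not evidence that a G4 forms.

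The 5 stretches below are shown because they precede starts of genes that were called and differ in guanine content, with the bases of a predicted G4 in capitals. They are written 5′ to 3′ on the strand of the gene, so that capitals made of C runs mark guanine runs on the opposite strand, and bases in an exon of the same gene were left off. They are Dnmt3a before its internal start at 3891744 (chr12:3891494-3891743, plus strand), Dnmt3b (chr2:153649199-153649410, plus strand), Dnmt3l before the start at 78049842 (chr10:78049592-78049841, plus strand), Tet3 (chr6:83441679-83441928, minus strand) and Uhrf1 before its upstream start (chr17:56303087-56303336, plus strand), the last without a match.
Dnmt3a: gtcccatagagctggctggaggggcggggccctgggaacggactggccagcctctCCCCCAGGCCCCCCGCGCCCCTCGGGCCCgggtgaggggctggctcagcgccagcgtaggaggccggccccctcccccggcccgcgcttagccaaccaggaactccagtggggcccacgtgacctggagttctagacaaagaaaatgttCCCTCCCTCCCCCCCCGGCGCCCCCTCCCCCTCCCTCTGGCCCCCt
Dnmt3b: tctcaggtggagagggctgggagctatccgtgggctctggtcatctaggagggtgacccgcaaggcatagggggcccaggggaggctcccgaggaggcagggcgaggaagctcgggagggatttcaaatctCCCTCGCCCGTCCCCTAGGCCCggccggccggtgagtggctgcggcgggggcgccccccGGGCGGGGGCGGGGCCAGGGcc
Dnmt3l: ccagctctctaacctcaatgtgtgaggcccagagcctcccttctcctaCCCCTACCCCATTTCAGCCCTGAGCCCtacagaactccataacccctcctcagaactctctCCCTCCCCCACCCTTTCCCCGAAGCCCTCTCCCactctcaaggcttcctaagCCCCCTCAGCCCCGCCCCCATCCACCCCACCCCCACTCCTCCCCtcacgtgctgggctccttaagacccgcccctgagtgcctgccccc
Tet3: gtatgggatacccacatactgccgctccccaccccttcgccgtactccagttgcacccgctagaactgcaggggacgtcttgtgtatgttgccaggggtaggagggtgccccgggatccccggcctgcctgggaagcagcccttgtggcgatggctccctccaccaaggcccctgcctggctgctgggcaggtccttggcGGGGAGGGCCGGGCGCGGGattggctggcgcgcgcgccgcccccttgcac
Uhrf1: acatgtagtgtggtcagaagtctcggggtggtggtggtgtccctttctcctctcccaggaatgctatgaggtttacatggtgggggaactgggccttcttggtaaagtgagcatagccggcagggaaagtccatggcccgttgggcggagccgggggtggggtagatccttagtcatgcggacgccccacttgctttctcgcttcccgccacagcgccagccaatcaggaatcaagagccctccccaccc

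The Dnmt3l stretch carried the most motif bases, 104 of 250, all as C runs. In the Dnmt3a stretch 74 of 250 bases were marked, in Dnmt3b 42 of 212 on both strands, and in Tet3 19 of 250. CpG content varied as much. The 250 bases before the Tet2 start held 51 CpGs and those before this Dnmt3l start 4. Those before the Dnmt3a start at 3806980 held 38, against a median of 15 over starts of tested genes.

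Dnmt3b, an active de novo methyltransferase, lies on the plus strand at chr2:153649411-153687730. Its level was 359, 364 and 588 CPM in Ctrl replicates 1 to 3 and 131, 99.4 and 145 CPM in PhenDC3 replicates 1 to 3. The lowest Ctrl library was thus well above the highest PhenDC3 library. Its fitted log2 fold change was −1.80 (SE 0.22, adjusted p = 0.000486 by edgeR), a 3.49-fold lower level and the largest change among the 8 genes tested. It was number 258 by size among the 2617 genes called lower. Of the 50-base words in Dnmt3b exons, 10.6% occur elsewhere in the genome, so some of its reads may be shared with related sequence.

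Dnmt3a, which has the same activity, lies at chr12:3801559-3914443 on the plus strand. It was measured at 166, 134 and 199 CPM in Ctrl and at 62.2, 42.3 and 63.0 CPM in PhenDC3. The groups were again separate, and the fitted log2 fold change was −1.57 (SE 0.19, adjusted p = 0.000491 by edgeR). The counts are per gene, so its alternative starts cannot be told apart, and the strand setting of the counting is not given in the sources used here, so antisense transcripts annotated at Dnmt3a and Dnmt3b cannot be separated either.

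Dnmt3l, the catalytically inactive partner, lies at chr10:78042287-78063622 on the plus strand. Its CPM was 520, 483 and 575 in Ctrl and 175, 148 and 217 in PhenDC3. Every PhenDC3 library was well below every Ctrl library. Its log2 fold change of −1.55 had the smallest error of the 3 (SE 0.15) and the lowest adjusted p of the 8 genes, 0.000189 by edgeR.

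The fall of the 3 de novo genes could not be told apart by size. Within libraries, the log2 ratio of Dnmt3b to Dnmt3a counts was 1.37 ± 0.23 (SD, n = 3) in Ctrl and 1.17 ± 0.09 in PhenDC3, a difference of −0.20 (exact two-sided permutation test, p = 0.3, adjusted p = 0.36 over 6 ratios). That of Dnmt3l to Dnmt3b was 0.30 ± 0.30 in Ctrl and 0.53 ± 0.09 in PhenDC3 (exact permutation p = 0.2, adjusted p = 0.36). Neither difference exceeded the spread of the Ctrl libraries, and with 3 against 3 libraries this test cannot give a p below 0.1.

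**Figure D2:**
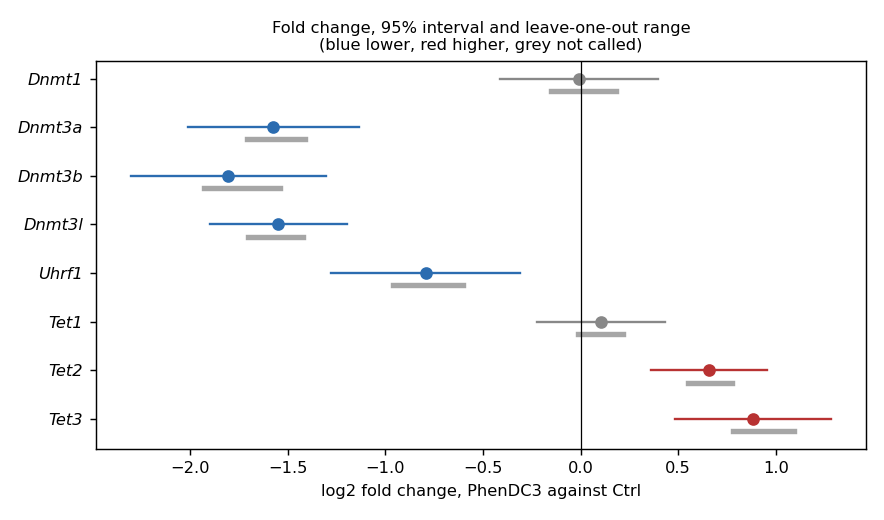
The log2 fold change (PhenDC3 against Ctrl) of the 8 genes tested, with the fitted value as a point, its 95% interval as a line and, as the grey bar beneath, the range of values when each of the 6 libraries was left out in turn. The intervals of Dnmt3a, Dnmt3b, Dnmt3l and Uhrf1 lie below 0, those of Tet2 and Tet3 above 0, and those of Dnmt1 and Tet1 span 0.

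Dnmt1, the maintenance methyltransferase (chr9:20907206-20959888, minus strand), was at 411, 345 and 539 CPM in Ctrl and at 431, 363 and 495 CPM in PhenDC3. The groups overlapped over nearly their whole range, and the difference was −0.01 on the log2 scale (95% interval −0.41 to 0.40, adjusted p = 0.980 by edgeR), so a change of up to about 0.4 in either direction on the log2 scale is within the error.

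Uhrf1, the recruiter of Dnmt1 (chr17:56303337-56323486, plus strand), was at 611, 566 and 845 CPM in Ctrl and at 413, 281 and 473 CPM in PhenDC3. The groups did not overlap, but the gap between the closest libraries, 473 and 566 CPM, was smaller than 1 SD of either group. Uhrf1 had a log2 fold change of −0.79 (SE 0.21, adjusted p = 0.0183 by edgeR), and the highest adjusted p with a library left out was 0.0499, without PhenDC3 replicate 1 (log2 fold change −0.84). Of the 50-base words in its exons, 28.1% occur elsewhere in the genome.

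The ratio of the 2 maintenance genes did not overlap between the groups, but the test could not decide on a shift. The log2 ratio of Uhrf1 to Dnmt1 counts was 0.57, 0.71 and 0.65 in the Ctrl libraries and −0.06, −0.37 and −0.07 in the PhenDC3 libraries. All Ctrl libraries thus held more Uhrf1 than Dnmt1 counts and all PhenDC3 libraries fewer, a difference of −0.81 in the mean log2 ratio (exact two-sided permutation test, p = 0.1, the smallest that 3 against 3 allows, adjusted p = 0.36). The difference was close to the log2 fold change of Uhrf1 alone, −0.79. Uhrf1/Dnmt1 was the only one of the 6 ratios tested whose groups did not overlap. How often other pairs of genes separate in this way was not counted.

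Tet1, the most abundant of the 3 Tet dioxygenases here (chr10:62804570-62887469, minus strand), was at 439, 430 and 546 CPM in Ctrl and at 495, 442 and 585 CPM in PhenDC3. The groups overlapped, and Tet1 had a log2 fold change of 0.10 (95% interval −0.22 to 0.43, adjusted p = 0.602 by edgeR).

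Tet2, which unlike Tet1 and Tet3 lacks a CXXC DNA-binding domain of its own (chr3:133463677-133545136, minus strand), was at 94.5, 111 and 82.0 CPM in Ctrl and at 154, 158 and 142 CPM in PhenDC3. Every PhenDC3 library was above every Ctrl library. Its log2 fold change was 0.66 (SE 0.13, adjusted p = 0.00491 by edgeR), a 1.58-fold higher level.

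Tet3, the Tet enzyme known for its role in the zygote (chr6:83362373-83457208, minus strand), was at 7.96, 7.75 and 11.6 CPM in Ctrl and at 17.3, 16.9 and 16.2 CPM in PhenDC3. The PhenDC3 libraries lay close together and above all Ctrl libraries. This gave a log2 fold change of 0.88 (SE 0.18, adjusted p = 0.00498 by edgeR), from a low base of 170 to 268 counts in Ctrl.

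The log2 ratio of Tet1 to Tet2 counts went from 2.30 ± 0.40 (SD, n = 3) in Ctrl to 1.74 ± 0.28 in PhenDC3, with overlapping groups (exact permutation p = 0.2, adjusted p = 0.36). That of Tet3 to Tet2 was −3.41 ± 0.53 in Ctrl and −3.17 ± 0.05 in PhenDC3 (exact permutation p = 0.4, adjusted p = 0.4). The groups of the Tet3 to Tet2 ratio overlapped too. With 3 against 3 libraries, the test cannot give a p below 0.1. It thus cannot decide whether Tet2 and Tet3 rose to different degrees.

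Tdg, the glycosylase that follows the Tet enzymes (chr10:82629814-82650799, plus strand), had 3, 4 and 9 counts in Ctrl and 1, 5 and 2 counts in PhenDC3. It was too low to be tested, and its log2 ratio to Tet1 overlapped between the groups (exact permutation p = 0.3, adjusted p = 0.36). These counts cannot be read as the level of Tdg mRNA. Of the 3033 words of 50 bases in its exons, 2361 (77.8%) occur elsewhere in the genome, among other places in the annotated copies Tdg-ps2, Tdg-ps, Gm5597 and Gm18293. How the counting treated reads with several matches is not given in the sources used here.

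The replicates of both groups shared a pattern. Replicate 3 was the highest and replicate 2 the lowest library of its group for Dnmt1, Dnmt3a, Dnmt3l, Uhrf1 and Tet1 in Ctrl as in PhenDC3. Tet2 ran the other way, with replicate 2 highest and replicate 3 lowest in both groups. The spread between libraries was thus shared by several of these genes, and their errors are not independent of each other.

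To compare genes with each other, CPM was divided by the length of the longest curated RefSeq transcript (RPKM, that is CPM per kilobase). In Ctrl the order was Dnmt3l at 289 ± 25.5 (SD, n = 3), Uhrf1 at 189 ± 41.9, Dnmt3b at 101 ± 30.3, Dnmt1 at 73.5 ± 16.8, Tet1 at 32.9 ± 4.46, Dnmt3a at 17.1 ± 3.36, Tet2 at 10.4 ± 1.60, Tet3 at 0.784 ± 0.186 and Tdg at 0.064 ± 0.041 RPKM. Among neighbours in this order, only Dnmt3b and Dnmt1 had overlapping Ctrl ranges, 83.1 to 136 and 58.8 to 91.8 RPKM. With summed exon length in place of the longest transcript, the ranges of Dnmt3l and Uhrf1 overlapped too, at 181 to 215 and 155 to 232 RPKM. In RPKM, Dnmt3b thus exceeded Dnmt3a, and Tet1 exceeded Tet2 and Tet3.

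In PhenDC3 cells the order in RPKM was Uhrf1 at 109 ± 27.6, Dnmt3l at 98.8 ± 19.0, Dnmt1 at 73.2 ± 11.2, Tet1 at 35.3 ± 5.05, Dnmt3b at 29.0 ± 5.44, Tet2 at 16.5 ± 0.883, Dnmt3a at 5.73 ± 1.203, Tet3 at 1.45 ± 0.050 and Tdg at 0.030 ± 0.026. Dnmt3b had dropped from the third to the fifth place, below Dnmt1 and next to Tet1, whose range of 30.8 to 40.8 RPKM overlapped its range of 23.0 to 33.6 RPKM. Tet2 and Dnmt3a had changed places, and their PhenDC3 ranges, 15.5 to 17.2 and 4.34 to 6.47 RPKM, did not overlap. Uhrf1, Dnmt3l and Dnmt1 could not be ordered beyond the spread of their libraries.

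**Figure D3:**
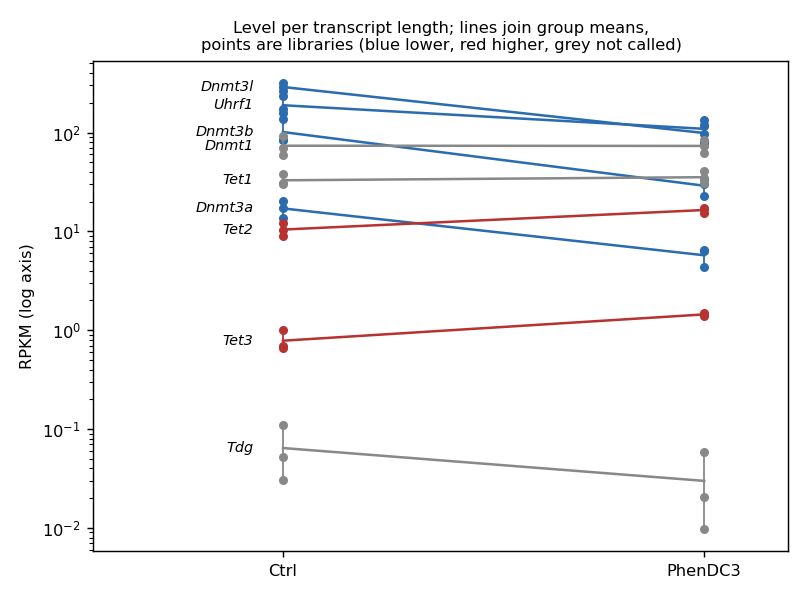
Level per transcript length (RPKM, log axis) of the 9 genes in Ctrl and PhenDC3. Points are libraries and lines join group means, with genes called lower in blue, called higher in red and not called or, for Tdg, not tested in grey. The blue line of Dnmt3a crosses the red line of Tet2, and that of Dnmt3b crosses the grey lines of Dnmt1 and Tet1.

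By a rule on the pattern over the 6 libraries, the 3 genes most like Dnmt3l, the first of the 9 by mean RPKM in Ctrl and also the one with the lowest adjusted p, were sought among 8789 genes with a mean of at least 10 CPM. They were Pcna (r = 0.9993 of log2 CPM), the replication clamp, Acer2 (r = 0.9985), an alkaline ceramidase, and Klf10 (r = 0.9983), a Krüppel-like factor. Their log2 fold changes were −0.61, −1.48 and −1.11. The 6 libraries fall into 2 groups that differ in 5135 genes, so the points share that difference.

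SNS-seq placed replication origin peaks near many of these genes. A peak within 2 kb of a start was listed for 9, 8 and 6 of the 9 genes in Ctrl replicates 1, 2 and 3, and for 7 and 5 in PhenDC3 replicates 1 and 2. Among tested genes with a RefSeq start, the shares were 66.6%, 64.2% and 38.8% in Ctrl and 64.1% and 45.4% in PhenDC3. Ctrl replicate 3 and PhenDC3 replicate 2 thus listed peaks at fewer genes in general, and the number of genes with a peak varied within a group as much as between groups. Dnmt1, Dnmt3a, Dnmt3b, Dnmt3l and Uhrf1 had such a peak in all 5 lists. The share of all tested genes with a peak in all 5 lists was not counted. The 9 genes have 16 starts, against 14066 for the 11044 tested genes, and a gene with more starts has more windows for a peak. The lists hold called peaks without read counts, so the depth is unknown, and a gene without a listed peak may still have signal. With 2 PhenDC3 lists against 3, no test was made.

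Near its starts, Dnmt3l carried the highest fold enrichment over the RNase-treated library among the 9 genes in Ctrl replicates 1 and 3 and PhenDC3 replicate 1, but not in Ctrl replicate 2, where Dnmt1 at 7.10 was first, nor in PhenDC3 replicate 2, where Dnmt3a at 9.97 was. At its start at 78049842, the peak with a summit 239 to 332 bases upstream had a fold enrichment of 14.97, 5.57 and 10.7 in Ctrl and of 9.54 and 8.37 in PhenDC3. For this peak, the PhenDC3 values lay within the range of the Ctrl values. This peak overlapped the guanine-rich stretch shown above in all 5 lists. A peak overlapped the 250 bases before 34.0%, 29.9% and 8.85% of starts of tested genes in Ctrl and 20.8% and 9.98% in PhenDC3. The Dnmt3l start at 78042287 differed, as no Ctrl list held a peak near it while both PhenDC3 lists did. Replicate 1 of PhenDC3 had summits 2125 bases upstream (fold enrichment 8.66) and 439 and 997 bases downstream (3.86 and 3.05). The other replicate had summits 20 bases upstream (3.82) and 389 bases downstream (5.56). By p-value rank in their list (higher is stronger), the replicate 1 peaks stood at percentiles 86.5, 11.1 and 5.61. Those of the other replicate stood at 12.7 and 42.8. The presence of peaks in the PhenDC3 lists only was not tested, and its share over all starts was not counted.

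The stretch before the Uhrf1 upstream start had no motif match but a G4Hunter score of 1.84. It also overlapped a peak in all 5 lists. The summit of this peak was 63 to 169 bases upstream. Its fold enrichment was 2.68, 2.72 and 3.25 in Ctrl and 5.92 and 5.77 in PhenDC3. Both PhenDC3 values were above all Ctrl values, but how often other peaks show this order was not counted. With 3 against 2 lists, a two-sided exact permutation test cannot give a p below 0.2. RNase-treated samples exist for both conditions, while the study's methods name a single such sample. If each condition was scaled to its own, a difference between these samples cannot be told apart from one at the peak.

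At the internal start of Dnmt3a, peaks with summits 603 to 777 bases upstream were listed in 4 lists, at a fold enrichment of 3.88 and 3.50 in Ctrl replicates 1 and 2 and of 7.19 and 9.97 in PhenDC3. Ctrl replicate 3 listed none there. Near the Dnmt3a start at 3807160, a peak 1910 to 1966 bases downstream was listed in all 5 lists. Its fold enrichment was 6.90, 6.22 and 8.61 in Ctrl and lower, at 2.31 and 3.63, in PhenDC3. By p-value rank in its list, this peak stood at percentiles 95.7, 96.8 and 98.7 in Ctrl and 15.9 and 91.4 in PhenDC3. How often other peaks differ like this, or like those at the internal start, was not counted. The limit on RNase-treated samples given for Uhrf1 holds here too. A peak 903 to 1034 bases downstream was at 10.8, 6.38 and 5.40 in Ctrl and 6.95 and 6.27 in PhenDC3. At Dnmt3b, a peak 291 or 292 bases upstream of the start was listed at a fold enrichment of 3.86 and 4.69 in Ctrl replicates 1 and 2 and in none of the other 3 lists, while one 655 to 685 bases downstream was listed in all 5, at 2.86, 3.70 and 2.82 in Ctrl and 2.89 and 3.90 in PhenDC3.

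Near the starts of the Tet branch genes, peaks were listed in fewer lists. Tet1, Tet2, Tet3 and Tdg each had 1 start searched, as had Dnmt3b, while the other genes had 2 or 3. Tet2 had 3 peaks near its start in each of Ctrl replicates 1 and 2, with a fold enrichment of up to 7.66 and 6.37, and none in Ctrl replicate 3 or either PhenDC3 list. Tet3 had peaks near its start in all 3 Ctrl lists, 2 or 3 in each. In PhenDC3 it had only 1 there, in replicate 1, at another place 1358 bases upstream. Near its start, Tet1 had 1 peak in Ctrl replicate 1 and 1 in PhenDC3 replicate 1. Tdg had 1 near its start in each of Ctrl replicates 1 and 2. Over the whole gene, Tet3 had 15, 12 and 6 peaks in Ctrl and 13 and 5 in PhenDC3. Tet1 had 6, 4 and 3 in Ctrl and 1 in each PhenDC3 list. Tet2 had 6, 4 and 2 in Ctrl and 2 in each PhenDC3 list. The whole lists held 120882, 81211 and 79377 peaks in Ctrl and 144103 and 102400 in PhenDC3. How often other genes have fewer peaks in PhenDC3 was not counted.

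**Figure D4:**
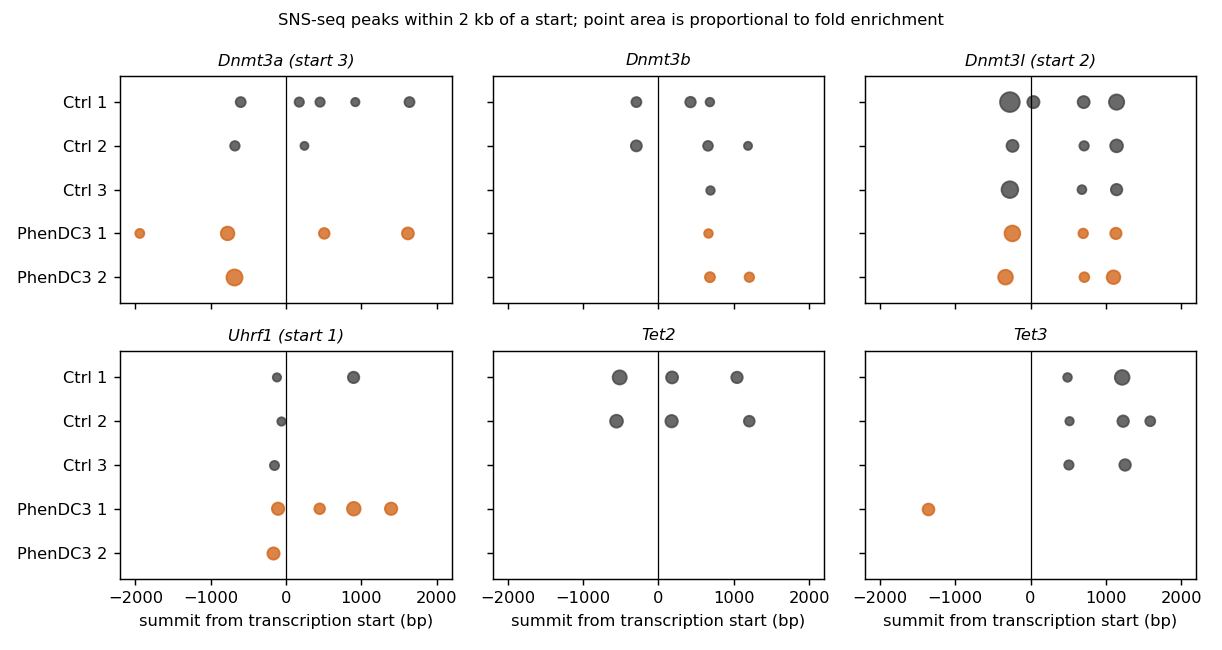
SNS-seq peak summits within about 2 kb of a start of 6 genes, by distance from the start in bases (negative is upstream) and by list, Ctrl in grey and PhenDC3 in orange, with point area proportional to fold enrichment. For genes with several starts, only the internal Dnmt3a start, the Dnmt3l start at 78049842 and the Uhrf1 upstream start are drawn. Dnmt3l shows the same 3 positions in all 5 lists, Uhrf1 the same position just upstream of the start, and Tet2 shows points in Ctrl 1 and 2 only.

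The other genes around these enzymes were taken from 7 lists with 69 genes in all, of which 68 were tested, 14 were called higher and 12 lower by edgeR. That is 38.2% called, beside the 36.8% of all genes. Of these 26 calls, 17 held under every alternative, and 9 were lost under at least 1. Those of Zfp57, Eed, Mbd3, Polb, Gadd45a and Mat2a were lost without PhenDC3 replicate 1, and all of these but Zfp57 with library totals alone. Calls were also lost without Ctrl replicate 1 (Zfp57, Eed, Polb, Gadd45a and Mat2a), Ctrl replicate 2 (Gadd45a), Ctrl replicate 3 (Zfp57, Polb and Mat2a), PhenDC3 replicate 2 (Zfp57, Eed, Polb and Mat2a) and PhenDC3 replicate 3 (Eed, Mbd3, Polb and Gadd45a). Their highest adjusted p by edgeR was 0.0861 for Zfp57, 0.117 for Eed, 0.0698 for Mbd3, 0.168 for Polb, 0.103 for Gadd45a and 0.127 for Mat2a. The calls of Idh1, Idh2 and Taf7l were each lost in 1 alternative only, without PhenDC3 replicate 1, Ctrl replicate 1 and PhenDC3 replicate 2.

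Among 6 maintenance partners, 2 were lower, 1 higher and 3 not called, with a median log2 fold change of −0.22. The median was −0.06 with library totals, −0.12 without Ctrl replicate 3, −0.13 without PhenDC3 replicate 2 and −0.33 without Ctrl replicate 2. Pcna fell by 0.61 on the log2 scale (adjusted p = 0.00252 by edgeR), and Cdca7, which helps the remodeller Hells reach chromatin, fell by 1.01 (adjusted p = 0.000631). Uhrf2, the paralog of Uhrf1, rose from 36.3 ± 1.45 to 58.6 ± 5.70 CPM (SD, n = 3), a log2 fold change of 0.69 (adjusted p = 0.00196 by edgeR), opposite to Uhrf1.

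Among 14 genes that steer or oppose de novo methylation, 3 were higher, 2 lower and 9 not called, with a median of −0.08 that became 0.07 with scaling by library totals. It was −0.14 without Ctrl replicate 2, −0.04 without Ctrl replicate 3 and −0.05 without PhenDC3 replicate 2, and only 1 gene was lower with library totals or without Ctrl replicate 1 or any 1 of the PhenDC3 replicates. The replicate block gave 5 higher and 4 lower. The 2 largest changes were in Dppa3, which keeps Uhrf1 from chromatin, and Prdm14, a known repressor of the de novo methyltransferase genes. Dppa3 rose from 23.6 ± 3.86 to 64.7 ± 4.24 CPM (log2 fold change 1.46, adjusted p = 0.000154 by edgeR) and Prdm14 from 20.3 ± 2.09 to 54.6 ± 5.89 CPM (1.43, adjusted p = 0.000141). Ehmt2, a histone H3 lysine 9 methyltransferase, fell by 0.80, Eed, a Polycomb subunit, by 0.37, and Zfp57, a guardian of imprints, rose by 0.71, the last 2 with calls that did not hold under every alternative.

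Among 10 methyl-CpG readers, 3 were higher, 1 lower and 6 not called, with a median of 0.44. Without Ctrl replicate 3 the median was 0.72 and 5 were higher, and 6 were higher with library totals and 8 with the replicate block. Zbtb4 had the largest log2 fold change, 1.98 (adjusted p = 0.000608 by edgeR), from a low 1.19 ± 0.355 to 4.67 ± 0.420 CPM. Mbd2 rose by 0.98, and Mbd3, a subunit of the NuRD complex that binds methylated DNA poorly, fell by 0.58, the only reader in that direction and 1 of the calls lost with scaling by library totals.

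Of 9 tested cofactors and partners of the Tet enzymes, 2 were higher, 2 lower and 5 not called, with a median of 0.17. The median was 0.07 without Ctrl replicate 1 and 0.32 with library totals, which gave 4 higher, and only 1 was higher without Ctrl replicate 1 or without PhenDC3 replicate 1. Idh1 and Idh2, which make the Tet co-substrate 2-oxoglutarate with NADPH, had log2 fold changes of 0.55 and 0.79, and Idh3a, of the NAD-dependent enzyme, and Ogdh, which consumes 2-oxoglutarate, had −0.52 and −0.74. Where the calls of Idh1 and Idh2 were lost, the adjusted p was 0.0581 and 0.0545 by edgeR. Cxxc4, a partner of Tet2, was too low to be tested.

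Among 12 genes of base excision and its accessories downstream of Tdg, 1 was higher, 3 lower and 8 not called, with a median of −0.15 that became 0.0054 with scaling by library totals. It was −0.23 without Ctrl replicate 2 and also without PhenDC3 replicate 3. The genes called higher were 3 without Ctrl replicate 2, 2 without PhenDC3 replicate 3 or with library totals, and 4 with the replicate block, and those called lower were 1 without PhenDC3 replicate 1 or 3 or with library totals, and 5 with the block. Gadd45b rose by 1.16 on the log2 scale (adjusted p = 0.000613 by edgeR), while the related Gadd45a was called lower at −0.60. The endonuclease Apex1 was lower by a log2 fold change of −0.56, and the polymerase Polb had −0.38. Among 5 genes of methyl donor supply, Mat2a, which makes S-adenosylmethionine, was the only call, at −0.47 (adjusted p = 0.0419 by edgeR). The median of the 5 was −0.22, and −0.06 with library totals. DESeq2, TMM scaling, the replicate block and leaving out Ctrl replicate 2 each gave 2 lower, and the last 2 of these and library totals each gave 1 higher. Ahcy, which removes S-adenosylhomocysteine, did not pass at −0.36.

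Among 12 germline genes known to be silenced by promoter methylation, 4 were higher, 1 lower and 7 not called, with a median of 0.46 that fell to 0.15 without Ctrl replicate 3. Dazl rose from 14.1 ± 2.55 to 33.4 ± 4.88 CPM (log2 fold change 1.25, adjusted p = 0.000754 by edgeR), and Slc25a31 from 2.02 ± 0.103 to 4.45 ± 0.343 CPM. Taf7l rose by 0.99 and Sohlh2 by 0.87 on the log2 scale. Mael went the other way, from 24.5 ± 5.24 to 7.94 ± 0.332 CPM (−1.62, adjusted p = 0.000243). Asz1, at 1.54, was below 1 CPM in every library and did not pass. No methylation was measured in these samples.

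**Figure D5:**
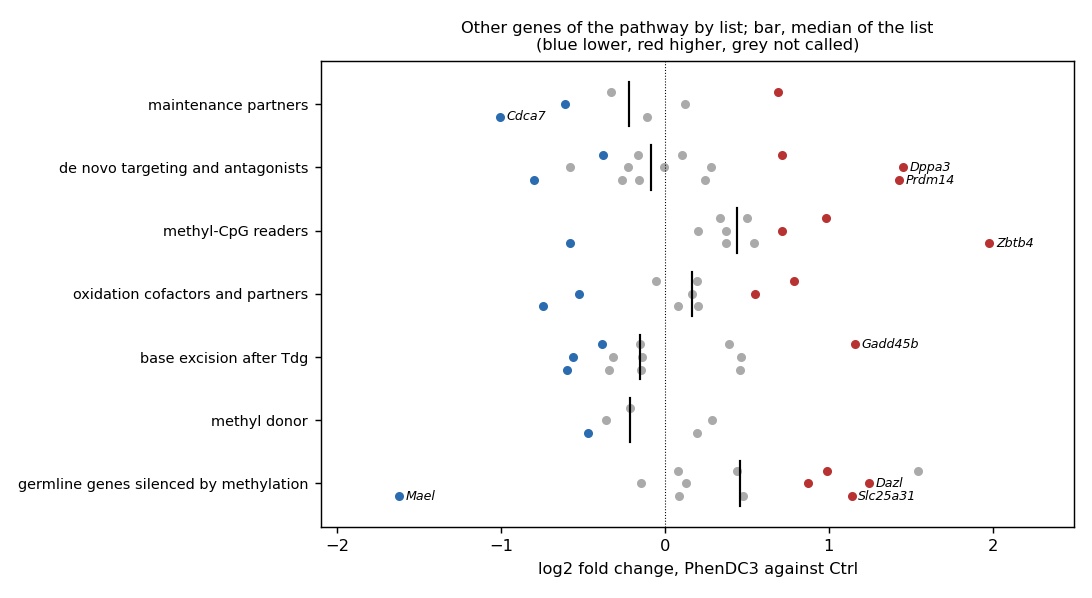
The log2 fold change (PhenDC3 against Ctrl) of the 68 tested genes of the 7 lists, 1 point a gene, called lower in blue, called higher in red and not called in grey, with a black bar at each list's median. Genes called with at least a 2-fold change are named. Both red and blue points occur in every list except methyl donor supply, whose only call was lower.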

How the data were processed

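The 9 genes and the lists were chosen with earlier results of these data known. RNA-seq reads were mapped by the authors with TopHat2 2.1.1 and Bowtie2 2.2.9 and counted on genes with HTSeq 0.6.1p1, and the deposited values are raw counts. The annotation, strand setting and treatment of multiply mapped reads in the counting are not given in the sources used here. The authors' table of normalised counts and their table of a DESeq2 comparison, which holds fold changes and p-values, were not used. For SNS-seq the authors mapped reads to mm10 with Bowtie2 2.2.5, called peaks with MACS2 2.1.0 for every replicate, using the RNase-treated library as background, and kept those overlapping a SICER region. The deposited lists give a fold enrichment ratio and −log10 of a p-value and a q-value. The RNase-treated libraries were not analysed here.

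Counts were tested in R 4.3.3 with edgeR 4.0.16 (relative log expression scaling, filterByExpr, robust quasi-likelihood fit of the 6 libraries, Benjamini-Hochberg adjustment over 13972 genes), after a test on simulated data. CPM are per effective library. Ratios used exact permutation over the 6 libraries. Peak overlap required 1 base. Named were the 9 genes, the called genes and the 3 largest changes of each list, and the 3 genes most like Dnmt3l. The values of 2 list genes that the rule named are not reported here. Alternatives were DESeq2 1.42.0, TMM, library totals, 2 other filters, no robust estimation, each library left out, a replicate block and, chosen after seeing the data, leaving out Rn45s.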

Additional observations from a re-analysis of the deposited data

How the results depend on the processing

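The same 6 of the 9 genes were called under every alternative run. The weakest was Uhrf1 without PhenDC3 replicate 1, at an adjusted p of 0.0499 by edgeR. Leaving out each library in turn gave 4 genes lower and 2 higher each time and 3332 to 5416 calls among all genes (1709 to 2689 higher and 1623 to 2727 lower), the fewest without PhenDC3 replicate 1. Library totals alone gave 1688 lower calls. The log2 fold change of Dnmt1, which was not called, changed sign to 0.15 with library totals and to 0.0062 with the block, and ranged from −0.15 to 0.18 over the left-out libraries. That of Tet1, also not called, ranged from −0.012 to 0.22. The RPKM of Dnmt3l in Ctrl was 197 when its summed exon length replaced its longest transcript, still the first in the order but with a range that overlapped that of Uhrf1. The 6 ratios kept their sign under each alternative.

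Ctrl and PhenDC3 libraries share replicate numbers, and no source says what a number marks. Deviations from the group means correlated at 0.098, 0.627 and 0.486 for the same numbers, not above 0.1 in every pair, though each library correlated best with its own number. With the replicate block, 7489 genes were called, 3797 higher and 3692 lower, and the 6 genes were called as before.

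The 3 libraries a group limit the exact test of ratios to p = 0.1, Tdg at 1 to 9 counts was too low for a comparison, and the peak lists give no depth.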
